A study of Mus musculus with 8 samples.

Results

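Members of the Notch pathway, 10 genes in all, were followed through single-cell RNA sequencing of mouse vascular cells: the receptor genes Notch1, Notch3 and Notch4, the ligand genes Dll4, Jag1 and Jag2, and the target genes Hey1, Hey2, Heyl and Hes1. They were taken by symbol from the deposited gene list, and all 10 of 10 were found among the 30406 genes that both runs share. Male ROSA26-eYFP+/+ Cdh5-CreERT2+ mice were used in every group, so that tamoxifen, fed from 6 weeks of age for 2 weeks, switched on YFP in cells in which the endothelial Cdh5 promoter drives the Cre recombinase. Feeding with chow (5.8% of it fat) or with a diet of 60% fat began at 8 weeks of age and lasted 12 to 13 weeks, after which YFP-positive cells were sorted from mesentery or epididymal adipose tissue. Actinomycin D, which stops transcription, was present during isolation in every group, and the sort gate is not stated in the labels. Each of the 8 libraries pooled tissue of 6 mice, and each of the 4 groups (mesentery or adipose, chow or high fat diet) has 2 libraries, called runs A and B because the experiment was carried out again for the replicates. A p-value here measures the spread between these pools, and single mice cannot be told apart within a pool.

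Notch receptors are membrane proteins that are cut when a ligand on a neighbouring cell binds them. The freed inner part enters the nucleus and joins the DNA-binding protein RBPJ, and the complex raises the expression of HEY and HES genes, which encode transcriptional repressors. In blood vessels the pathway is known for setting arterial against venous identity, for limiting the number of tip cells during sprouting, and for the contact of endothelium with mural cells (pericytes and smooth muscle).

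Promoters are shown because RBPJ binds DNA near its targets, and Hey2 is one of those targets. RefSeq's promoter table (GRCm38.p6) holds entries for 7 of the 10 members: Notch1, Notch3, Notch4, Dll4, Jag1, Jag2 and Hey2. The RBPJ motif GTGGGAA, which reads TTCCCAC from the other strand, was searched on both strands in windows from 250 bases before to 50 bases after the start. Of the 7 members, 1 held it, Hey2, with 1 match on each strand. Of 32851 promoters of the same length, 6.38% held the motif and 0.256% held it 2 or more times. The E-box CACGTG, which HEY and HES proteins are known to bind, was in 0 of the 7 and in 7.15% of all promoters. Below are Hey2 (chr10:30842781-30843033, minus strand, up to the end of the second match, which crosses the start), Dll4 (chr2:119325534-119325783, plus strand) and Notch3 (chr17:32166891-32167140, minus strand), one target, one ligand and one receptor. Capitals mark the RBPJ motif, and a match of letters is a description, not a shown binding site.
Hey2: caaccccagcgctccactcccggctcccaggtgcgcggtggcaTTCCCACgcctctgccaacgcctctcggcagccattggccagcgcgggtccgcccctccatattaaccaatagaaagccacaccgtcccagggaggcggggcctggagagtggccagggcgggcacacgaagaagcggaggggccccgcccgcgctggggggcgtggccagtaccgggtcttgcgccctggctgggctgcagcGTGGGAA
Dll4: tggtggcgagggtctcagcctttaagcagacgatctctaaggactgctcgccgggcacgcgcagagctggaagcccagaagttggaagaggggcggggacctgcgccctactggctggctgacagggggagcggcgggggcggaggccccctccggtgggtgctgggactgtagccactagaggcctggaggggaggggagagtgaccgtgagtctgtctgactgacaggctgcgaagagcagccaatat
Notch3: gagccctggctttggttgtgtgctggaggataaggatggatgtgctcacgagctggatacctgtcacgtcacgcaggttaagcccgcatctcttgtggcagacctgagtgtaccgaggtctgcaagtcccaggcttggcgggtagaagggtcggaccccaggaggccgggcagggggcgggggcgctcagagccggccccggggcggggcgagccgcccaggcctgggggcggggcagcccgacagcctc

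Total UMIs (counted RNA molecules) per library were 3461360 to 6714473 in run A and 18829960 to 36779289 in run B, so low levels rest on fewer molecules in run A. After filters and the removal of doublets, 23207 cells fell into 27 clusters, which were made without the 63 listed Notch pathway genes and named from marker genes with "-like" added. Of these cells 18448 are counted as endothelial below, which leaves out the 185 cells of proliferating-like cluster 25, although they carry endothelial markers. The sorted cells thus held others too: macrophage-like, mural-like, fibroblast-like, adipocyte-like, T cell-like and B cell-like cells. There were 1955 arterial-like, 6799 capillary-like, 3194 venous-like and 2449 lymphatic-like cells. A further 4051 endothelial cells had no class name. Of these, 2144 were in cluster 3, which had a median of 1026 UMIs and haemoglobin genes among its leading genes. Levels are CPM, a gene's UMIs summed over a class in a library and scaled to a common total. They are compared between classes for 1 gene at a time and not between genes. Classes are clusters of these same cells, so differences between classes are described and not tested.

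Among the receptors, Notch1 (chr2:26457902-26503822), the main receptor of endothelium, was found in all endothelial classes. Its level was 286 ± 44.6 CPM (SD, n = 8 libraries) in arterial-like, 225 ± 74.0 in capillary-like, 235 ± 62.4 in lymphatic-like and 156 ± 23.3 CPM in venous-like cells. The order of the first 3 lay within the spread: arterial-like cells were above capillary-like ones in 6 of 8 libraries and above lymphatic-like ones in 6 of 8. Arterial-like and venous-like ranges did not overlap. Notch4 (chr17:34564286-34588543), a receptor largely restricted to endothelium, was graded more steeply. It stood at 157 ± 37.9 CPM in arterial-like, 96.6 ± 15.5 in capillary-like, 15.1 ± 9.88 in venous-like and 3.65 ± 3.63 CPM in lymphatic-like cells. Arterial-like exceeded capillary-like cells in 8 of 8 libraries, and both lay above every venous-like and lymphatic-like value.

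By class mean, the ligands shared an arterial peak and differed in how far they reached into capillaries. Arterial-like cells exceeded capillary-like ones in 7 of 8 libraries for both Dll4 and Jag2, with overlapping ranges. Dll4 (chr2:119325784-119335666), the ligand of arterial and tip cells, was at 208 ± 62.9 CPM in arterial-like, 135 ± 45.4 in capillary-like, 60.7 ± 26.3 in lymphatic-like and 14.2 ± 3.19 CPM in venous-like cells, n = 8 libraries each. Venous-like values of 12.1 to 21.2 CPM were below every value of the other classes. Jag1 (chr2:137081451-137116520), which signals to mural cells among others, was the ligand most set apart in arterial-like cells. It had 258 ± 99.1 CPM there and 63.0 ± 26.6 in capillary-like, 36.0 ± 10.5 in venous-like and 29.9 ± 15.1 CPM in lymphatic-like cells. The lowest arterial-like library, 156 CPM, lay above the highest capillary-like one, 95.4 CPM. Arterial-like cells held 10.4% of the UMIs of all endothelial cells and 48.9% of their Jag1 UMIs. Jag2 (chr12:112907803-112929812), the other Serrate-type ligand, was at 195 ± 63.5 CPM in arterial-like, 120 ± 61.4 in capillary-like, 18.4 ± 12.4 in venous-like and 14.3 ± 5.17 CPM in lymphatic-like cells. Its capillary-like level separated by run, at 121 to 210 CPM in the 4 libraries of run A and 61.9 to 74.5 CPM in the 4 of run B.

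The targets did not follow 1 pattern. Hey1 (chr3:8663359-8667038) was at 215 ± 69.9 CPM in arterial-like, 83.6 ± 27.6 in capillary-like, 27 ± 18.8 in lymphatic-like and 2.85 ± 2.48 CPM in venous-like cells. Its arterial-like level was above the capillary-like one in 7 of 8 libraries, with overlapping ranges. Among endothelial cells, Hey2 (chr10:30832359-30842783), a factor of arterial fate, was counted almost wholly in arterial-like ones. It reached 40.4 ± 22.9 CPM there, 0.525 ± 0.941 in capillary-like and 0.379 ± 0.535 CPM in lymphatic-like cells, and no UMI was counted among 15360291 in venous-like cells. A count of 0 allows up to 3 counts, or 0.195 CPM over the 8 libraries, so the pooled arterial-like level of 47.8 CPM was at least 244-fold higher, with counting error alone considered. Of 455 Hey2 UMIs in endothelial cells, 426 (93.6%) were in arterial-like cells. Outside the endothelium, mural-like cells held 105 Hey2 UMIs, at 16.6 ± 14.8 CPM (SD, n = 6 libraries). Arterial-like cells were above mural-like ones in 4 of these 6 libraries, and the ranges overlapped. Hes1 (chr16:30065357-30067796), a target shared with other pathways, did not peak in arterial-like cells. It had 286 ± 53.1 CPM in lymphatic-like, 235 ± 39.1 in capillary-like, 145 ± 38.1 in arterial-like and 126 ± 30.0 CPM in venous-like cells. Arterial-like cells were below capillary-like and lymphatic-like ones in 8 of 8 libraries each, and arterial-like and venous-like levels did not separate (5 of 8 libraries).

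**Figure D1:**
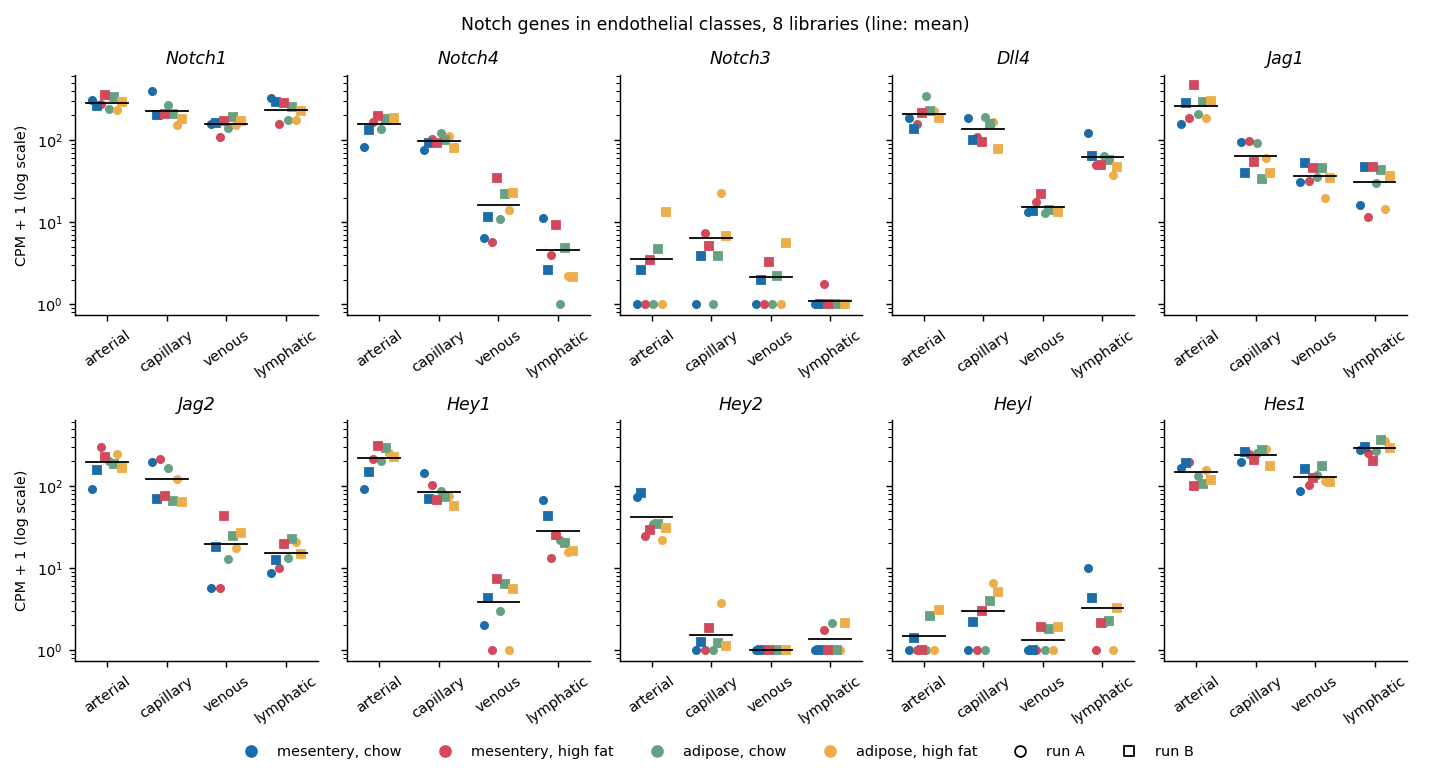
Level of each gene (CPM + 1, log axis) in 4 endothelial classes; each point is 1 of 8 libraries, colour gives tissue and diet, shape the run, and the black line the mean. By mean, Notch4, Dll4, Jag1, Jag2, Hey1 and Hey2 are highest in arterial-like cells and Hes1 in lymphatic-like cells. Notch3 and Heyl stay near the floor.

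The share of arterial-like cells with at least 1 UMI was read after thinning each cell to 1000 UMIs, which left out 109 of 1955 cells. It was 18.8 to 34.0% for Notch1, 13.2 to 27.7% for Dll4, 9.52 to 25% for Hey1 and 1.25 to 9.52% for Hey2 over the 8 libraries. Without thinning it was 34.1 to 70.9%, 33.7 to 56.5%, 23.3 to 63.7% and 5.2 to 25.3%. Macrophage-like cells were taken as a background. Thinned, they gave 1.52 to 8.33% for Notch1, 0.17 to 1.67% for Dll4, 0 to 1.67% for Hey1 and 0% for Hey2. Without thinning these were 15.3 to 25%, 2.76 to 3.75%, 1.18 to 1.95% and 0 to 0.163%. These macrophage-like shares come from 3 libraries, all of run B. T cell-like (4 libraries) and B cell-like cells (3 libraries) include mesentery libraries of run A. Thinned, T cell-like cells gave 2.25 to 6.12% for Notch1, and 0% for Dll4, Hey1 and Hey2. Thinned B cell-like cells gave 0% for each of these genes. Without thinning, T cell-like cells gave 6.67 to 29.5% for Notch1, 0 to 1.96% for Dll4, 0 to 1.28% for Hey1 and 0% for Hey2. No adipose library of run A had 50 cells of any of these classes. How much of the Notch1 counted in these classes was free RNA and how much their own was not tested. Median depth was 1849 to 5056 UMIs in arterial-like and 2061 to 11870 in macrophage-like cells. The lowest arterial-like share lay above the highest macrophage-like one for each of the 4 genes, thinned or not. For Hey2, 0 of 872 thinned macrophage-like cells, taken over all libraries, had a UMI, which allows a share of up to 0.344%.

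The arterial-like class was made of 2 clusters that carried different targets. Against all other cells, cluster 6 (1535 cells) has Gkn3, Gja5 and Dkk2 among its leading genes. Those of cluster 17 (420 cells) include Klk10, Adh7 and the matrix gene Mgp. In the 6 libraries with at least 20 cells of each, Hey1 was higher in cluster 6 in 6 of 6 and Hey2 higher in cluster 17 in 6 of 6. Hey1 ranged from 155 to 335 CPM in cluster 6 and from 0 to 90.2 CPM in cluster 17. Hey2 ranged from 5.61 to 32.4 CPM in cluster 6 and from 39.1 to 196 CPM in cluster 17. Neither gene's ranges overlapped between the clusters, and neither gene had been used to make them. The Hey2 gap rests on few UMIs, since both values beside it come from adipose on chow A. There 39.1 CPM is 2 UMIs in 21 cells (95% Poisson interval 4.74 to 141 CPM), and 32.4 CPM is 7 UMIs (13.0 to 66.8 CPM). The Hey1 value of 0 CPM comes from the same 21 cells, with an upper bound of 72.2 CPM. The mean log2 difference, cluster 17 minus cluster 6 on CPM + 10, was -2.59 ± 1.38 (SD) for Hey1 and 2.05 ± 1.16 for Hey2.

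The ligands and the receptor gene Notch4 went with Hey1 across these clusters. Dll4, Jag1, Jag2 and Notch4 were each lower in cluster 17 in 6 of 6 libraries, by -1.53 ± 0.45, -0.82 ± 0.23, -1.46 ± 0.50 and -0.77 ± 0.55 on the same log2 scale. Notch1 was lower in 5 of 6, by -0.38 ± 0.49, and Hes1 in 5 of 6, by -0.15 ± 0.59, both within their spread. Hey2 was the single member higher in cluster 17. With all libraries pooled, Klk10 had 268 CPM in cluster 17 and 10.3 CPM in cluster 6, and Vwf, which encodes von Willebrand factor, had 876 and 493 CPM. Gkn3, Gja5 and Dkk2 were found in both, at 301, 321 and 86.9 CPM in cluster 17 against 385, 429 and 133 CPM in cluster 6.

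**Figure D2:**
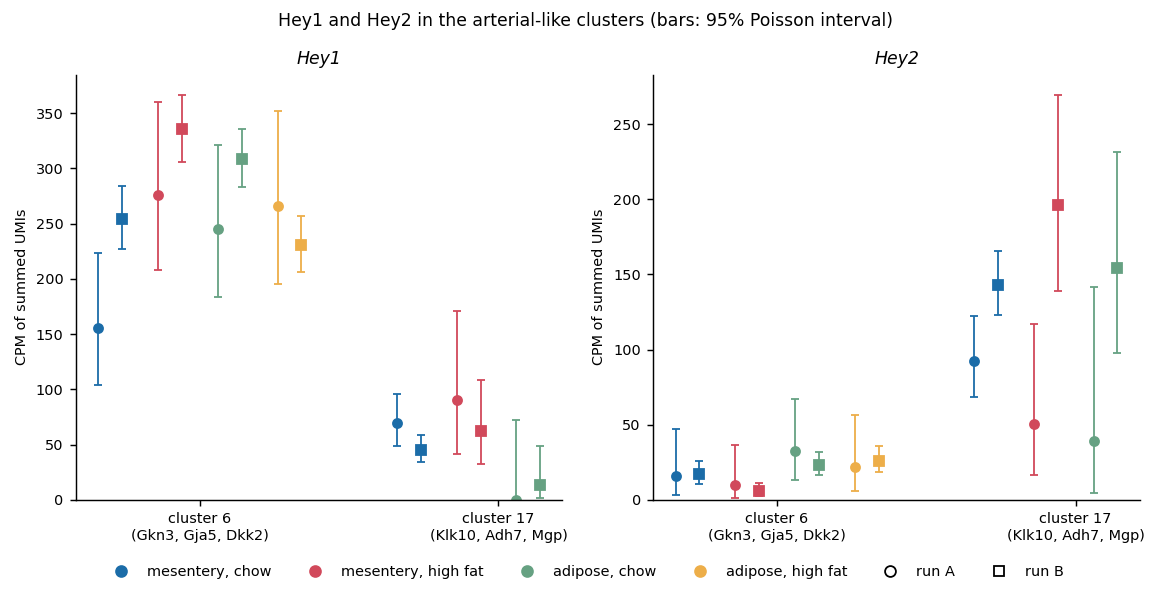
Hey1 and Hey2 (CPM of summed UMIs) in arterial-like clusters 6 and 17; each point is a library with at least 20 cells and bars are exact 95% Poisson intervals, which cover counting error only. Hey1 is higher in cluster 6 and Hey2 in cluster 17, with wide intervals for run A libraries of cluster 17, down to 21 cells.

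Capillary-like cells were uneven for Hey1 as well. In cluster 5, in which the arterial connexin gene Gja4 had 158 CPM, Hey1 was at 136 to 271 CPM over 6 libraries. In clusters 1 and 2, where Gja4 had 11.9 and 4.36 CPM, Hey1 was at 16.3 to 36.9 and 13.7 to 41.8 CPM over the libraries with at least 50 cells. Hey2 was low in all 3, at 0.63, 0.38 and 0.19 CPM in the pooled counts of clusters 5, 1 and 2. Dll4 was less uneven, with 105 to 264 CPM in cluster 5, 64.5 to 160 CPM in cluster 1 and 94.0 to 149 CPM in cluster 2. Its pooled counts gave 146, 80.5 and 141 CPM in the same order. In the arterial-like clusters pooled Dll4 was at 227 CPM in cluster 6 and 80.8 CPM in cluster 17. Cluster 23 carries Apln, Prnd and Kit, genes of sprouting cells, and was left without a class name. There Dll4 was at 103 and 181 CPM, Notch4 at 133 and 164 CPM and Hey1 at 26.5 and 5.57 CPM in mesentery on high fat diet B and adipose on chow B, the 2 libraries with at least 50 of its cells. Lymphatic-like cluster 4 exceeded cluster 13 for Notch1 in each of the 7 libraries with both, at 180 to 396 against 87.9 to 215 CPM.

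Notch3 and Heyl were highest in mural-like cells. Notch3 (chr17:32120820-32166896) is the receptor of mural cells and Heyl (chr4:123233556-123249870) a target expressed there. Over all endothelial cells Notch3 was at 2.81 ± 2.54 CPM and Heyl at 1.48 ± 1.19 CPM (SD, n = 8 libraries). These cells include cluster 26 (158 cells, no class name), which carries endothelial markers and has the pericyte genes Higd1b, Abcc9 and Rgs5 among its leading genes. Cluster 26 had Notch3 at 80.3 CPM and Heyl at 29.7 CPM, and 54 of the 317 Notch3 UMIs counted as endothelial. In mural-like cluster 10 Notch3 had 507 CPM in mesentery on chow B, 452 in mesentery on high fat diet B, 417 in adipose on chow B and 455 CPM in adipose on high fat diet B. Heyl had 86.0, 95.4, 108 and 143 CPM in the same order. These 4 libraries also held the pericyte gene Rgs5 at 3406 to 4534 CPM.

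The run A adipose cells placed in the same cluster differed from these. Notch3 was at 25.04 and 23.1 CPM there, Heyl at 50.1 and 23.1, and Rgs5 at 45.7 and 46.3 CPM on chow and high fat diet. The fibroblast gene Dcn had 5235 and 5429 CPM, against 2.95 to 14.3 CPM in run B. The second mural-like cluster, 24, was high in Dcn and low in Notch3 in both runs. In adipose on chow B it had Dcn at 2721 CPM and Notch3 at 15.9 CPM, and in adipose on high fat diet B Dcn at 5064 CPM and Notch3 at 26.1 CPM. Mural-like cells were thus mixed within run B as well, and tissues or diets are not compared on them. The run B cells of cluster 10 also carried endothelial RNA, with Cdh5 at 684 to 1070 CPM against 81.0 and 120 CPM in run A. How much of the Notch1, Notch4 and Dll4 counted in them came from endothelial RNA was not tested.

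**Figure D3:**
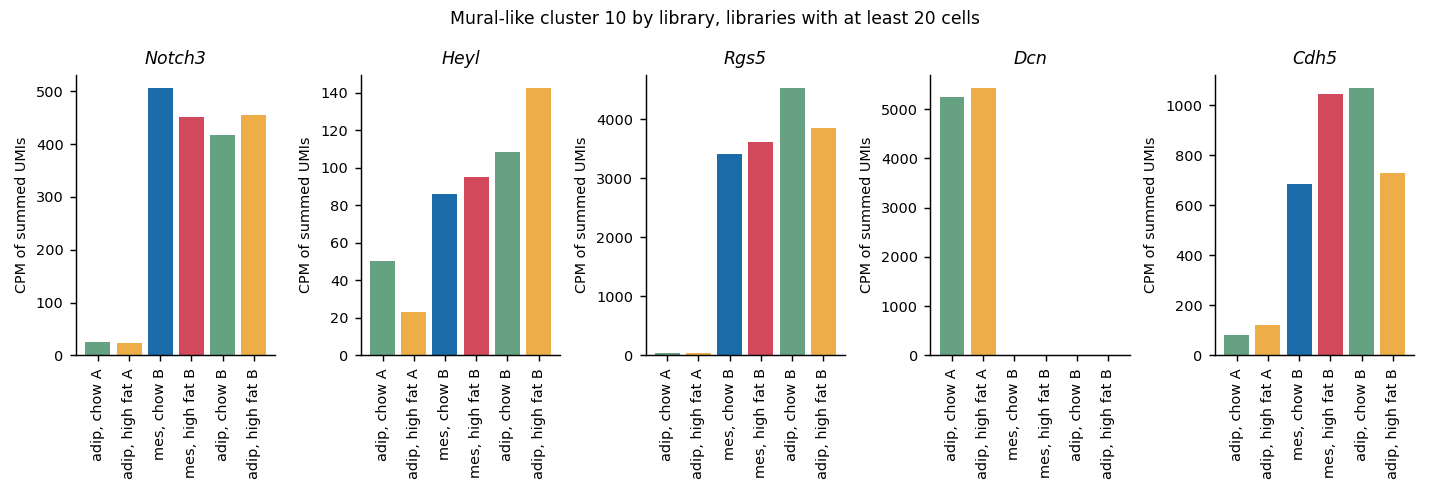
Notch3, Heyl, the pericyte gene Rgs5, the fibroblast gene Dcn and the endothelial gene Cdh5 in mural-like cluster 10, as CPM of summed UMIs; each bar is 1 library with at least 20 cells. The 4 run B libraries are high in Notch3, Heyl and Rgs5, and the 2 run A libraries are high in Dcn.

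**Figure D4:**
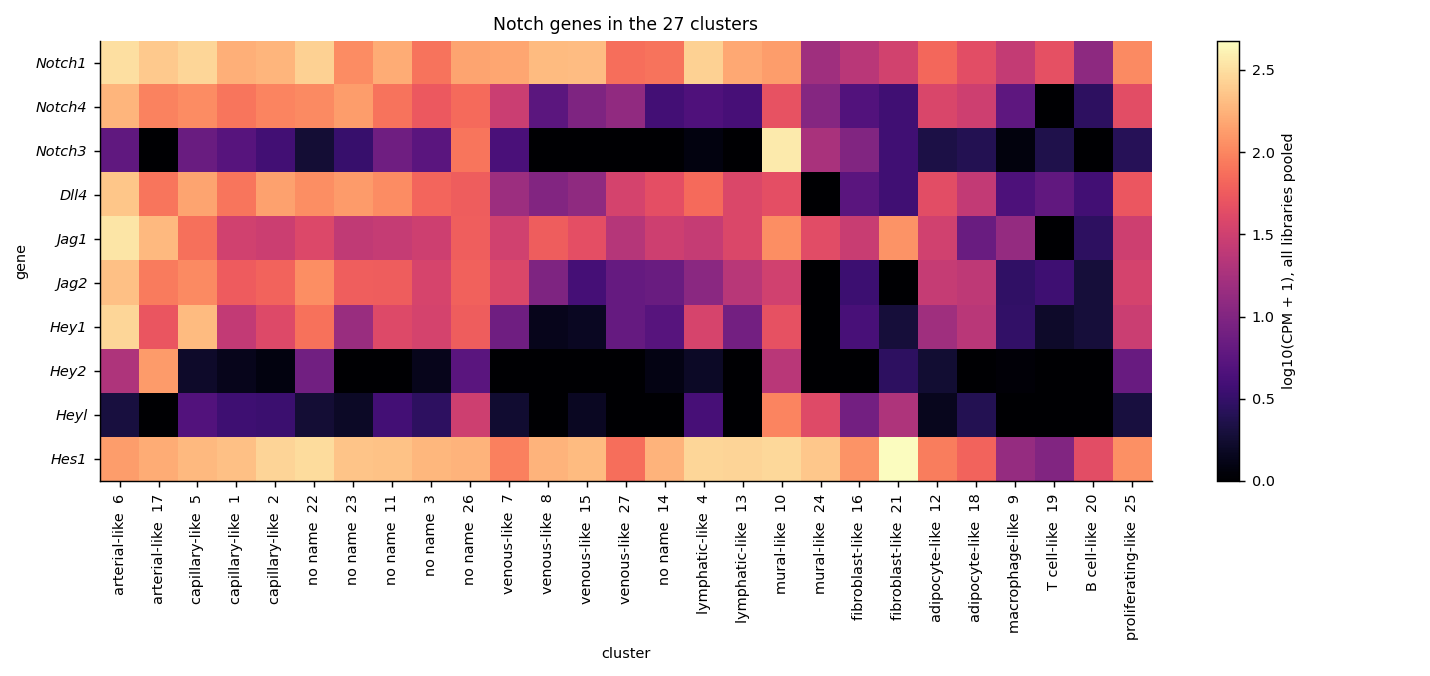
All 10 genes in the 27 clusters as log10(CPM + 1) with libraries pooled; rows are genes and columns clusters with their class names. Hey2 is brightest in cluster 17, Hey1 in clusters 6 and 5, Notch3 and Heyl in cluster 10, and Hes1 in fibroblast-like cluster 21 at 474 CPM.

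Diet was compared within each tissue, and tissue within each diet, over libraries. Counts were summed per library in 3 populations (arterial-like, capillary-like and endothelial cells as a whole) and fitted with edgeR on all genes, at a Benjamini-Hochberg adjusted p under 0.05. In the fit without the run, 0 members were called by edgeR in the 15 comparisons, and the background was 0% of genes in each. Of 130 single tests 9 had an unadjusted p under 0.05, beside 0.0366 to 4.03% of all genes over the 15 comparisons. Once the run was included, 27 of the 130 tests were under 0.05, beside 0.86 to 11.6% of all genes. DESeq2 without the run also called 0 members, and its share of all genes called is not given. With the run as a block, since the labels say that the experiment was repeated as a whole, edgeR called Hey1 and Hey2 in 2 of the 15 comparisons and no other member.

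In arterial-like cells of the mesentery, Hey1 was higher and Hey2 lower on the high fat diet. Hey2 had 72.3 and 80.9 CPM on chow (runs A and B) and 23.4 and 28.4 CPM on high fat diet. Hey1 had 92.1 and 148 CPM on chow and 214 and 303 CPM on high fat diet. The groups did not overlap for either gene, nor for Jag2 and Notch4, so 4 of the 8 members tested did not overlap, beside 26.8% of all genes tested. With the run as a block, Hey2 changed by -1.61 ± 0.29 log2 (SE; edgeR adjusted p = 0.00158) and Hey1 by 1.02 ± 0.23 (edgeR adjusted p = 0.0132). Without the block the same changes were -1.63 ± 0.32 and 1.03 ± 0.33, with an edgeR adjusted p of 0.9997 each. The background was 2.40% of the 9204 genes tested with the block, and 2 of the 8 members tested were called.

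The other members missed the threshold. Jag2 had 90.7 and 155 CPM on chow and 301 and 224 CPM on high fat diet, a change of 0.92 ± 0.26 with the block (edgeR adjusted p = 0.0578) and of 1.03 ± 0.39 without it, about as large as that of Hey1. Leaving out 1 library at a time moved the Jag2 change from 0.49 (without mesentery on chow A) to 1.62 (without mesentery on chow B). Jag2 was called in the latter fit (edgeR adjusted p = 0.00107), without adipose on high fat diet A (0.0453) and at clustering resolution 2.0 (0.0368). Notch4 changed by 0.64 ± 0.23 (edgeR adjusted p = 0.196), Jag1 by 0.47 ± 0.23 (0.513), Dll4 by 0.25 ± 0.24 (0.864), Notch1 by 0.07 ± 0.23 (0.979) and Hes1 by -0.52 ± 0.25 (0.508). Notch3 and Heyl did not pass the filter on low counts in these cells.

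Fed chow, mesenteric and adipose arterial-like cells differed in the same genes. Hey2 was at 72.3 and 80.9 CPM in mesentery and 33.7 and 33.7 CPM in adipose, and Hey1 at 92.1 and 148 against 199 and 286 CPM. With the block, the difference (mesentery minus adipose) was 1.31 ± 0.28 log2 for Hey2 (edgeR adjusted p = 0.00679) and -0.94 ± 0.23 for Hey1 (edgeR adjusted p = 0.0235), against a background of 2.86%. DESeq2 with the same block called neither (adjusted p = 0.224 for Hey2 and 0.0853 for Hey1). Of the 8 members tested, 6 did not overlap between the tissues, beside 26.5% of all genes. Dll4 differed by -0.74 ± 0.24 (edgeR adjusted p = 0.119) and Hes1 by 0.73 ± 0.25 (0.161). This comparison and the diet comparison share the 2 libraries of mesentery on chow, so they are not independent.

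In adipose no member was called for diet. Hey2 was at 33.7 and 33.7 CPM on chow and 21.2 and 29.7 CPM on high fat diet, and Hey1 at 199 and 286 against 255 and 226 CPM. Changes with the block were -0.23 ± 0.33 and -0.06 ± 0.24, with a background of 0.163%. Of the 8 members tested, 3 (Notch4, Dll4 and Hey2) did not overlap between the diets in adipose, beside 21.1% of all genes. On high fat diet the tissues gave -0.07 ± 0.34 for Hey2 and 0.15 ± 0.24 for Hey1, with a background of 0.185%. The difference between the diet effects of mesentery and adipose was tested directly. It was -1.38 ± 0.44 log2 for Hey2 (edgeR adjusted p = 0.615) and 1.08 ± 0.33 for Hey1 (0.512), so a response particular to mesentery was not shown, and the background was 0%.

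**Figure D5:**
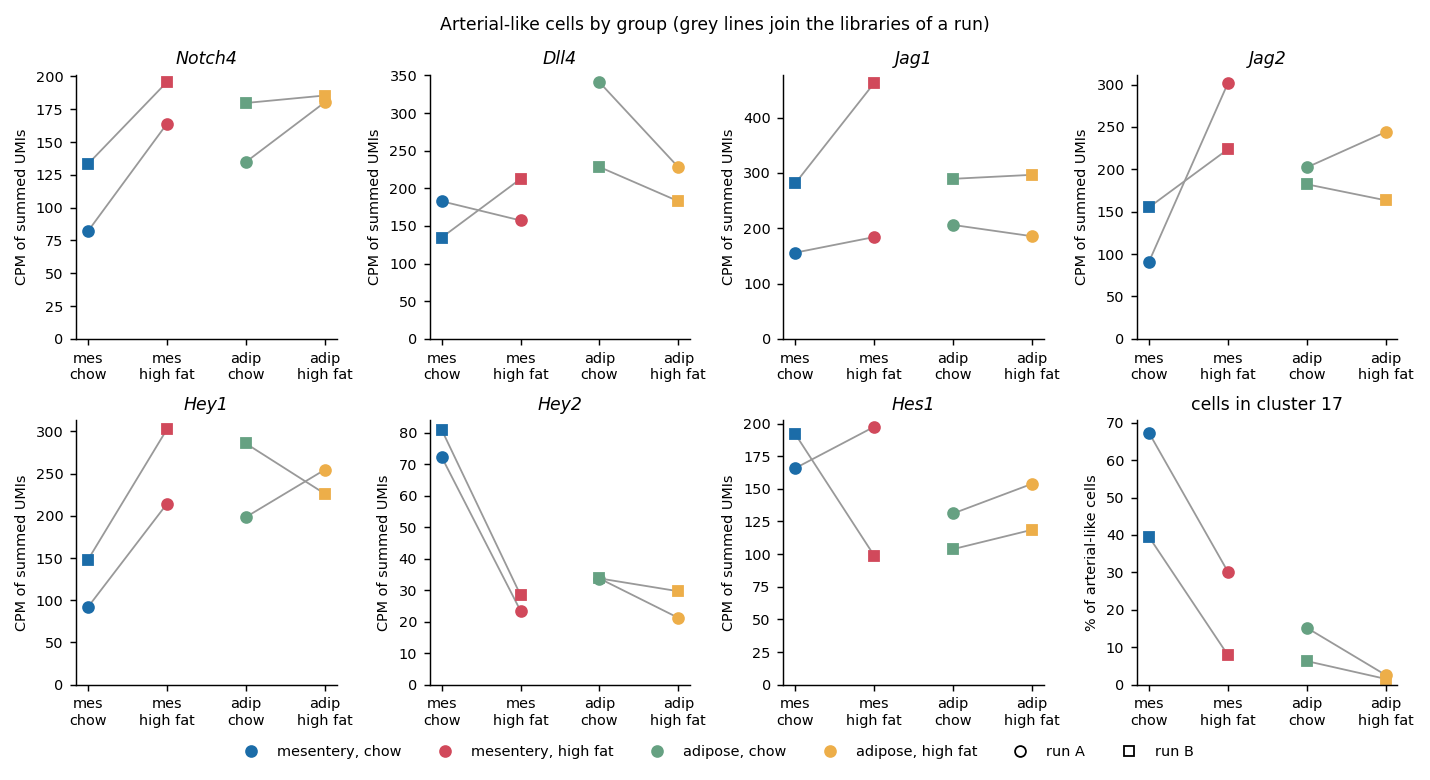
Levels of 7 genes (CPM of summed UMIs) in arterial-like cells of the 8 libraries by tissue and diet, with grey lines joining libraries of a run, and in the last panel the percentage of arterial-like cells in cluster 17. In mesentery Hey2 and the cluster 17 share are lower and Hey1 is higher on high fat diet in both runs.

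The makeup of the class moved with these calls. Cluster 17 held 67.3% and 39.5% of arterial-like cells in mesentery on chow A and B, 30.2% and 7.96% in the same tissue after high fat feeding, 15.2% and 6.31% in adipose on chow and 2.60% and 1.55% in adipose after high fat feeding. In mesentery on chow, 48 of 51 Hey2 UMIs of run A and 181 of 202 of run B were in cluster 17, and on high fat diet 5 of 7 and 38 of 46. In cluster 6 alone, chosen after the makeup was seen, no member was called. With the block, diet in mesentery gave 0.49 ± 0.25 for Hey1 (edgeR adjusted p = 0.934) and -1.44 ± 0.58 for Hey2 (0.646), and tissue on chow gave -0.37 ± 0.25 for Hey1 and -0.54 ± 0.45 for Hey2, the latter turned in direction. The 12 capillary markers also moved. Their summed level in arterial-like cells was 726 and 7565 CPM in mesentery on chow and 3880 and 28620 CPM on high fat diet, with Car4 and Aqp7 at 0 in both run A libraries of mesentery. Over the 8 libraries it was 726 to 39210 CPM, and its part in the Hey1 and Hey2 results was not tested.

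Leaving out single libraries ended calls while the changes kept their direction. Without mesentery on high fat diet B, neither Hey1 (0.95, edgeR adjusted p = 0.444) nor Hey2 (-1.70, 0.251) was called for diet. For tissue on chow neither Hey1 (-0.87, edgeR adjusted p = 0.559) nor Hey2 (1.10, 0.662) was called without adipose on chow B. Hey1 was also not called there without adipose on chow A (-0.98) or mesentery on chow A (-0.81), and Hey2 not without mesentery on chow B (1.36).

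In capillary-like cells 0 members were called by edgeR in any comparison with or without the block. With the block, the background for diet was 0.494% in mesentery and 0.998% in adipose. For tissue it was 0.265% under chow and 0.0549% under high fat diet, and for the interaction 0%. The member with the smallest unadjusted p in that fit was Dll4 for diet in adipose. It had 193 and 157 CPM on chow and 165 and 76.9 CPM on high fat diet, a change of -0.62 ± 0.26 with the block (edgeR adjusted p = 0.706). The makeup of the class differed between these libraries. Cluster 2 held 11.6% and 71.4% of capillary-like cells in adipose on chow A and B and 50.2% and 2.2% after high fat feeding, and cluster 1 held 40.9% and 11.1% against 20.5% and 66.1%. Pooled Dll4 was at 141 CPM in cluster 2 and 80.5 CPM in cluster 1, and the part of this makeup in the Dll4 values was not tested. Hey1 was at 143 and 69.1 CPM in mesentery on chow and 102 and 67.2 CPM on high fat diet, a change of -0.15 ± 0.28. Mesentery on chow A had 66 capillary-like cells in all, which limits its precision.

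Over all endothelial cells 0 members were called by edgeR. The background with the block was 0.0226% for the diet effect of mesentery, 0.00754% for that of adipose, 0.437% for tissue under chow and 0% for the other comparisons. The smallest unadjusted p with the block was that of Dll4 for tissue on chow. Dll4 had 63.8 and 71.1 CPM in mesentery and 101 and 137 CPM in adipose, a difference of -0.78 ± 0.20 (edgeR adjusted p = 0.170) that DESeq2 with the block called. Jag2 had 23.9 and 54.2 CPM in mesentery on chow and 55.7 and 82.7 CPM on high fat diet, a change of 0.86 ± 0.24 (edgeR adjusted p = 0.278). Hey1 changed by 0.62 ± 0.19 (edgeR adjusted p = 0.337) and Notch4 by 0.66 ± 0.22 (0.405). These sums include the 4051 cells without a class name and depend on how many cells of each class a library holds.

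Of the 53 other genes of the pathway, in lists of further ligands and receptors, ligand processing, receptor cleavage, the nuclear complex, further targets and inhibitors, 38 were tested in arterial-like cells. With the block 1 was called higher and 0 lower in mesentery against adipose on chow, and 0 in each of the other arterial-like comparisons. That is a share near the background of 2.86% for tissue on chow. The 1 gene was Aph1b, a subunit of the gamma-secretase that cuts Notch receptors, at 1.82 ± 0.43 log2 (edgeR adjusted p = 0.0164). Aph1b was also highest in lymphatic-like cells, at 100 ± 31.8 CPM (SD, n = 8 libraries), against 17.9 ± 12.6 CPM in arterial-like ones. The median change over the 38 genes for diet in mesentery was 0.02 log2, beside -0.01 over all genes. In capillary-like cells 0 of 40 and in all endothelial cells 0 of 44 were called, where the background was at most 0.998% and 0.437%.

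Genes of like pattern were sought over 32 points, the 4 classes in the 8 libraries, on log2(CPM + 10) with each library's mean removed. These points share cells, depth and class differences, so Pearson's r is given as a description. The 63 listed Notch pathway genes, members included, and genes under a mean of 20 CPM were left out of the search. Among the members themselves Dll4 and Hey1 had r = 0.97. Outside the pathway the nearest gene was Gja4 for Notch1 (r = 0.91), Rapgef1 for Notch4 (0.98), Lgals3bp for Dll4 (0.97), Pcsk5 for Jag1 (0.97), Msx1 for Jag2 (0.99), Lgals3bp for Hey1 (0.96), Gkn3 for Hey2 (0.94) and Dpysl2 for Hes1 (0.90). Dll4 and Hey1 shared their first gene, Lgals3bp, and their second, Slc9a3r2. For Notch3 and Heyl, near 0 in all 4 classes, r was at most 0.73 and 0.75.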

How the data were processed

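Each of the 8 libraries has a matrix of UMI counts per gene and cell barcode, which the authors deposited without normalization. The software versions in the matrices, per the file headers, are 3.0.2 (run A) and 5.0.0 (run B); Seurat 4.3.0 and build mm10 are named per the submitters' processing notes. Of 27944 barcodes, 23970 passed limits of 500 UMIs and 300 genes (minimum) and 10% mitochondrial UMIs (maximum); the last removed 22.8 to 30.8% of run A and 5.42 to 8.96% of run B. A simulated-doublet score removed 763 cells (3.18%) at the expected rate, since its automatic threshold marked 48. At most 10 barcodes were shared by 2 libraries.

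Cells were clustered with scanpy 1.11.5 and leidenalg 0.10.2 on 2000 variable genes, 30 principal components, 20 neighbours and resolution 1.0, without the Notch genes. Before the neighbour search, genes were scaled within each run and the components were corrected for run by a scheme like that of Harmony. Clusters were named from listed markers. UMI counts summed per library and population (at least 50 cells for a class level) were tested with edgeR 4.0.16 (quasi-likelihood, TMM, filterByExpr, Benjamini-Hochberg over all genes tested) in R 4.3.3, and with DESeq2 1.42.0 as an alternative. The fit was tested on simulated data. Run letters pair libraries, per the labels: deviations of same-run libraries correlated at r = 0.455 to 0.636 in arterial-like, 0.359 to 0.453 in capillary-like and 0.602 to 0.752 in all endothelial cells, over 6 pairs each. Alternatives covered the block, DESeq2, the low-count filter, each library left out, resolution 2.0, a minimum of 1000 UMIs and a stricter doublet limit; cluster 6 alone was added after seeing the data. The members and gene lists were chosen with earlier results of these data known. Named are the 10 members, and in the report other listed pathway genes only where called; 4 more in the closing section were chosen after their values were seen. Intervals and floors cover counting error only.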

Additional observations from a re-analysis of the deposited data

How the results depend on the processing

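With the runs paired by a replicate block, the number of members called rose from 0 to 2 (Hey1 and Hey2) in arterial-like cells, both for diet in mesentery and for tissue on chow. DESeq2 with the block also called 2 for diet in mesentery, and for tissue on chow in all endothelial cells it called 1 (Dll4) where edgeR called 0. Leaving out 1 library at a time in the block fit gave 0 to 3 members for diet in mesentery, 0 to 3 for tissue on chow and 0 to 1 for the interaction, where the 1 was Jag2 without mesentery on chow B. The 3 for diet were Hey1, Hey2 and Jag2, and the 3 for tissue, without mesentery on chow A, were Dll4, Hey2 and Hes1. In such fits a lone library is assumed to vary like the other groups. The share of all genes called is not given for these fits, for DESeq2 with the block or for cluster 6 alone. Without it, whether their counts reflect the members or a change in calls over all genes is not shown here. Cluster 6 alone gave 0 and 0 in the first 2 comparisons, and there Hey2 for tissue on chow turned from 1.31 to -0.54 log2. The cause was not tested. Of 50 alternatives to differences in level between classes, 50 moved by less than 1 SD. Cluster 6 alone aside, 13 alternatives without the block called neither Hey1 nor Hey2 in either comparison. They gave 0.81 to 1.31 for Hey1 and -1.69 to -1.56 for Hey2 for diet in mesentery, and -1.22 to -0.72 and 1.14 to 1.38 for tissue on chow. Leaving out each of the 8 libraries in the block fit gave 0.90 to 1.26 (7 of 8 called) and -1.70 to -1.58 (7 of 8) for diet, and -1.16 to -0.81 (5 of 8) and 1.10 to 1.38 (6 of 8) for tissue. DESeq2 with the block called 0 members for tissue on chow in arterial-like cells. Hey2 rests on 51, 7, 9 and 4 UMIs in the run A arterial-like libraries (mesentery on chow and high fat diet, then adipose), which limits its precision there.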

Other observations

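Some other pathway genes, chosen after their values were seen, had levels that differed by class. Dtx1, a Deltex ubiquitin ligase gene of the pathway, was at 208 ± 60.7 CPM (SD, n = 8 libraries) in lymphatic-like cells and at 0.94, 1.54 and 0.98 CPM in arterial-like, capillary-like and venous-like cells. Its lowest lymphatic-like library had 143 CPM, and T cell-like cells had 74.5 ± 30.5 CPM (n = 4 libraries). Mfng, which encodes a Fringe enzyme that adds sugar to Notch receptors, was nearly absent from lymphatic-like cells, at 0.99 CPM against 66.5 to 78.7 CPM in the other 3 classes. Nrarp, a feedback inhibitor of the pathway, was at 179 ± 31.7 CPM in arterial-like, 129 ± 39.3 in capillary-like and 17.1 ± 6.21 CPM in lymphatic-like cells. Rbpj was highest in macrophage-like cells, at 367 ± 137 CPM (n = 3 libraries), against 42.1 to 56.6 CPM in the 4 endothelial classes. These are descriptions of clusters of the same cells, with no test.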
